A study of Mus musculus with 11 samples.

Results

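The lysosomal genes described here are 40 genes of the lysosome, chosen by name: 9 cysteine proteases, 4 aspartic and serine proteases, 10 glycosidases and sulfatases, 8 genes of lipid handling, 7 of the lysosomal membrane and 2 regulators. All 40 were found among the 22068 gene symbols of the tables, 39 by symbol and the transcription factor Tfeb under its older symbol, and all 40 were expressed highly enough to be tested. RNA was measured in CD11b-positive myeloid cells, isolated with antibodies and magnetic beads from tumours implanted under the skin of C57BL/6 mice and harvested 4 days after local irradiation at 15 Gy. The hosts were wild type (WT, 3 libraries), TLR9-/- (TLR9KO, 4 libraries) or STAT3-/- through MxCre/Stat3flox (STAT3KO, 4 libraries). All 3 groups were irradiated, so no comparison below shows an effect of irradiation. MxCre is driven by an interferon-inducible promoter and is not limited to myeloid cells, and the labels list neither the tumour line nor a control carrying MxCre alone. The labels do not state that replicates came from separate animals, so each p-value is set against a spread that may be only technical.

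Lysosomes are acidic compartments in which proteases, glycosidases, sulfatases and lipid hydrolases break down material taken up by the cell or delivered by autophagy. Macrophages, which clear dying cells, are rich in them. The cathepsins and legumain also cut antigens and trim the endosomal receptor TLR9 into its signalling form. A proton pump, the V-ATPase, keeps the compartment acidic, and transcription factors of the TFEB family bind E-box sequences in the promoters of many lysosomal genes. Legumain and several cathepsins are inhibited by cystatins and related proteins.

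Expression is given as RPKM, a read density per transcript length and sequencing depth, and differences as log2(RPKM + 1), on which changes of low genes are understated. The targeted genes were low where the labels say so: Stat3 was 15.7 to 19.7 RPKM in STAT3KO and 58.5 to 76.1 RPKM in the other libraries, and Tlr9 was 3.53 to 7.70 RPKM in TLR9KO against 19.2 to 61.1 RPKM elsewhere. Which exons the remaining reads cover was not measured. Of the marker lists, that of macrophages had the highest sum in every library. All 9 listed were above 1 RPKM in each group's mean, and they summed to 4185 to 4996 RPKM (WT), 4205 to 7098 RPKM (TLR9KO) and 5866 to 7579 RPKM (STAT3KO). The CD11b gene Itgam itself ranged from 177 to 328 RPKM. Of the 6 melanocyte markers all were above 1 RPKM in every group, with sums of 439 to 1430 RPKM (WT), 474 to 1373 RPKM (TLR9KO) and 817 to 1262 RPKM (STAT3KO), lowest in WT replicate 2 and TLR9KO replicate 3. None of the 6 passed the test in any of the 3 comparisons. The 2 lists differ in length, and per gene the gap varied. The mean log2(RPKM + 1) of macrophage and melanocyte markers was 8.045 and 7.278 in WT replicate 1, and 8.545 and 5.759 in TLR9KO replicate 3. The part of tumour cell RNA in the values was not measured. Neutrophil markers (9 of 10 in the tables) summed to 56.9 to 247 RPKM in 10 libraries and to 620 RPKM in STAT3KO replicate 2. Of 4 osteoclast and giant cell markers Calcr was at 0 in every library, and the list summed to 15.1 to 25.2 RPKM (WT), 7.48 to 16.5 RPKM (TLR9KO) and 2.38 to 5.19 RPKM (STAT3KO). Fibroblast markers (5) summed to 1.34 to 3.32, 8.36 to 36.9 and 12.0 to 26.4 RPKM in the same order, erythroid markers (4) to 42.2 to 167, 0.53 to 3.23 and 2.68 to 49.4 RPKM, and dendritic cell markers (6) to 138 to 210, 78.5 to 149 and 27.2 to 61.2 RPKM. Markers of T, NK and B cells (8) stayed at 0.84 to 10.3 RPKM. In such bulk samples fewer cells of a type and less RNA per cell cannot be told apart.

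Promoter sequences were searched for the E-box because it is the letter pattern bound by the TFEB family. Of the 34 members with an entry in RefSeq's promoter table (GRCm38.p6), 12 (35.3%) had at least 1 CACGTG on either strand in the 250 bases before the start site, against 6.86% of 27025 genes and 10.5% of the 7554 tested genes with an entry. The longer form TCACGTG, which contains the E-box, was in 10 of the 34 (29.4%), against 6.09% of the tested genes. The 5 windows printed here were picked for their motifs: 4 called genes, Glb1, Ctsd and Lgmn with 1, 2 and 1 E-boxes and Gm2a with a sequence of the STAT form TTCNNNGAA, and Lamp1, called in no comparison, with 4 E-boxes. They lie at chr9:114400828-114401077 on the plus strand (Glb1), chr7:142387828-142388077 on the minus strand (Ctsd), chr12:102439093-102439342 on the minus strand (Lgmn), chr8:13158911-13159160 on the plus strand (Lamp1) and chr11:55097735-55097984 on the plus strand (Gm2a). Each is written 5′ to 3′ and ends at the base before the start site, with the motif in capitals.
Glb1: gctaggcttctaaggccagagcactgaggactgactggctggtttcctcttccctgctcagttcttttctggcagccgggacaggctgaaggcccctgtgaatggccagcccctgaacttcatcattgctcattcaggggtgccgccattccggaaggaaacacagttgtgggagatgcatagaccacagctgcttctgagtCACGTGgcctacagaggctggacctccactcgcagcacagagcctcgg
Ctsd: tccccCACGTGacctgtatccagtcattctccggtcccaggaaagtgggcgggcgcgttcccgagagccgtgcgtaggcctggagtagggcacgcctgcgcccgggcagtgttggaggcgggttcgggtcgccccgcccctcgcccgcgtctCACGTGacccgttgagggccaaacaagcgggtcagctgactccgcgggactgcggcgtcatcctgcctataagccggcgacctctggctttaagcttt
Lgmn: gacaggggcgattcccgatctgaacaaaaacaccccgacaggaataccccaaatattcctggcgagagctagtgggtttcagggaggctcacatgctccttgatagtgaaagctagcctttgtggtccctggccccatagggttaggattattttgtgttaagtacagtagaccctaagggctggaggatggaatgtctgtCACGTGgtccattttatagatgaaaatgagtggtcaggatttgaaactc
Lamp1: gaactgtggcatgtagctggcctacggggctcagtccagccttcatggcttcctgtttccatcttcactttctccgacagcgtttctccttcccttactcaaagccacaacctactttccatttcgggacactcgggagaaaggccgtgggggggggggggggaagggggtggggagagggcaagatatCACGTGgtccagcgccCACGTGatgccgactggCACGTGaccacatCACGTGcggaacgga
Gm2a: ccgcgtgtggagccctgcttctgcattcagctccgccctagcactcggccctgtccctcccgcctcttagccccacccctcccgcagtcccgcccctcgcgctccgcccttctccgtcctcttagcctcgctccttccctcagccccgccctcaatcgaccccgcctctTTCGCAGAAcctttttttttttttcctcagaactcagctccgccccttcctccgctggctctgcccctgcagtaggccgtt

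The E-box nearest to the start site began 48 bases before it in Glb1, 98 in Ctsd, 49 in Lgmn and 15 in Lamp1. TTCNNNGAA, searched on both strands, was in 3 of the 34 members (8.82%: Ctsc, Gm2a and Cln3), close to its share of 7.12% among tested genes. A match is a description of the letters and not of binding.

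Several of these genes were among the most abundant transcripts of the cells. The highest was Psap, the precursor of the saposins that help lipid hydrolases reach their substrates, with a mean of 4904 RPKM over the 11 libraries (rank 3 among all genes). Next came Ctsd, the aspartic protease cathepsin D, at 3087 RPKM (rank 8), Ctss, the antigen-processing cathepsin S, at 1845 RPKM (rank 15), Ctsb, the cysteine protease cathepsin B, at 1601 RPKM (rank 21), and Grn, the precursor of the lysosomal granulins, at 1094 RPKM (rank 35). The least abundant were Ctsf at 1.92 RPKM and Ctse at 1.21 RPKM. The 40 genes held 4.18% to 5.22% of the summed RPKM, and 8 or 9 of them stood among the 100 highest genes of each library.

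Steady and variable members were found side by side. The highest library exceeded the lowest by only 1.20 times for Lamp1, the main lysosomal membrane glycoprotein, and by 1.25 times for Psap. The corresponding ratio was 5.66 for Ctsl, cathepsin L, 3.86 for Glb1, the lysosomal beta-galactosidase, and 3.75 for Ctsk, the collagen-cleaving cathepsin K. Ctsk and Ctsl were both highest in STAT3KO replicate 1, at 94.7 and 1689 RPKM. The mean log2(RPKM + 1) over the 40 genes was 6.92 ± 0.03 in WT (SD, n = 3), 6.85 ± 0.05 in TLR9KO (n = 4) and 7.00 ± 0.08 in STAT3KO (n = 4). No library held the highest value of its group for more than 19 of the 40 genes, the number in TLR9KO replicate 3 and in STAT3KO replicate 4.

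**Figure D1:**
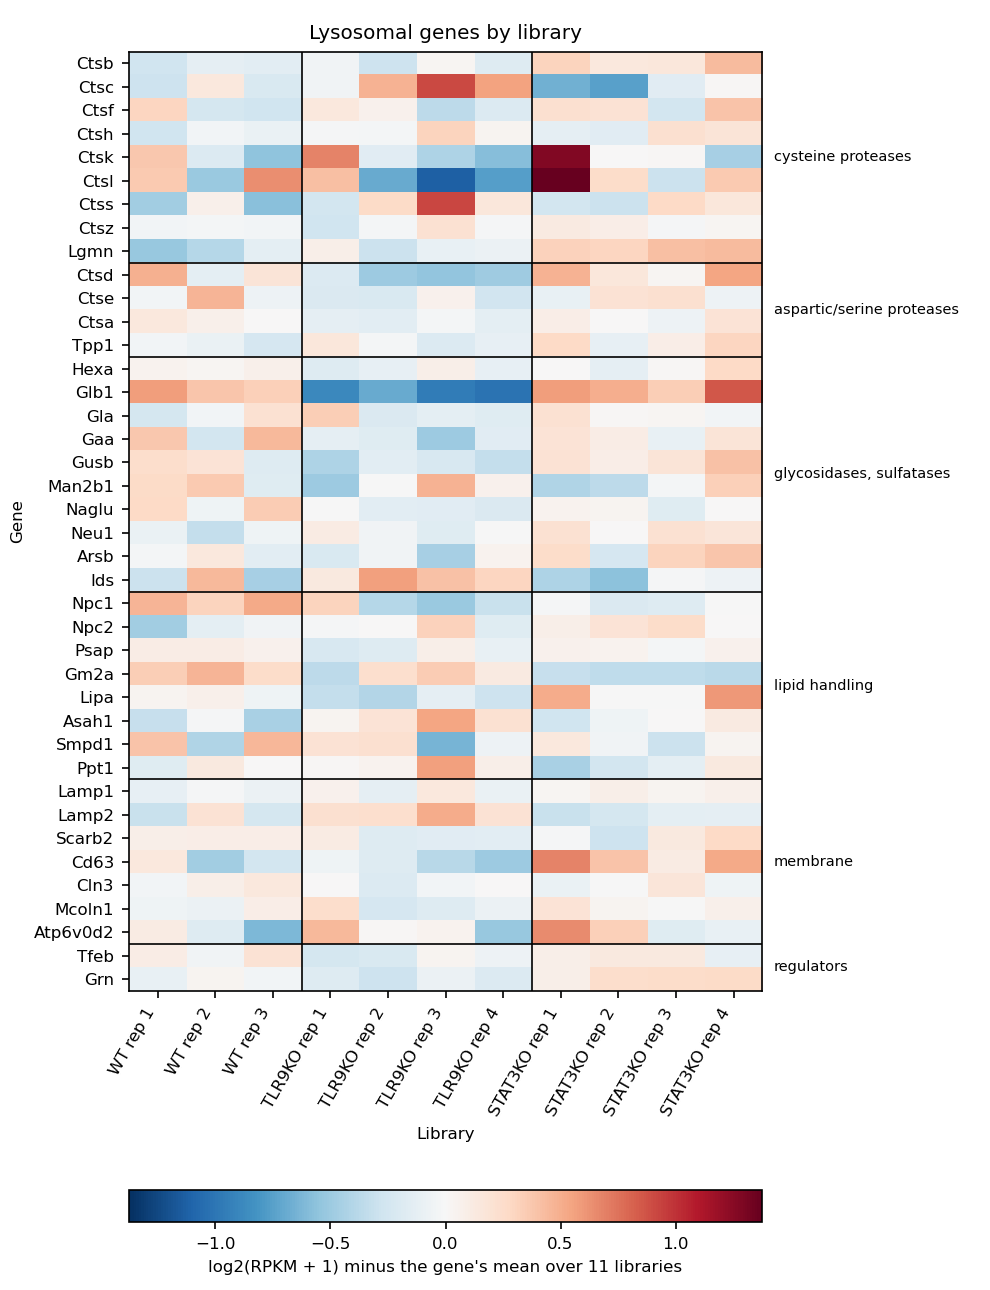
Rows are the 40 lysosomal genes in order of role, columns the 11 libraries, and colour is log2(RPKM + 1) minus the gene's mean over all libraries (red higher, blue lower). Glb1 is blue in the 4 TLR9KO libraries, Gm2a is blue in the 4 STAT3KO libraries, and Ctsk and Ctsl are darkest in STAT3KO replicate 1.

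STAT3KO was compared with WT to see how these genes differ where Stat3 is deleted by MxCre. Legumain (Lgmn) and the tetraspanin Cd63 were higher, the ganglioside activator Gm2a and the cholesterol exporter Npc1 were lower, and most of the 40 did not pass. In all, 4 rose, 2 fell and 34 did not pass, where passing (a call) means a limma adjusted p under 0.05 over the 10557 genes tested. The background is high in this comparison: 44.0% of all genes tested passed (29.2% rose and 14.8% fell), against 6 of these 40 (15.0%). The median log2 difference was 0.11 over the 40 genes and 0.09 over all genes tested, and the groups did not overlap in 9 of the 40 against 47.7% of all genes. The direction of calls over all genes moves with the scaling: 66.3% of calls were rises as deposited, 51.5% when each library was rescaled by its median ratio to the others, and 52.3% when its trend with transcript GC content and length was removed. The members' calls were 3 up and 3 down with the scaling, and 4 up and 4 down with the correction, under which 38.5% of all genes passed (20.2% rose and 18.4% fell).

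Among the proteases Lgmn, which cuts after asparagine in the lysosome, was 700, 765 and 918 RPKM in WT and 1254, 1235, 1342 and 1362 RPKM in STAT3KO. Each STAT3KO library was above each WT library. The log2 difference was 0.72 ± 0.12 (SE, limma adjusted p = 0.00100), or 163% of the WT mean, and it passed in each of 21 alternative settings (other scalings, filters and fits, and libraries left out). Ctsb rose less, from 1308, 1456 and 1425 RPKM to 1958, 1746, 1756 and 2135 RPKM, again without overlap (0.44 ± 0.12, limma adjusted p = 0.0120). Its call was lost without WT replicate 1 (limma adjusted p = 0.0553) and without the filter on low values (0.0914). The other 7 cysteine proteases did not pass, with differences from -0.27 (Ctsc) to 0.33 (Ctsk), nor did any of the 4 aspartic and serine proteases. The abundant Ctss (0.30 ± 0.27) and Ctsd (0.12 ± 0.18) did not pass.

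Lipid handling held both of the falls. Gm2a, which lifts the ganglioside GM2 out of the membrane for digestion, was 520, 570 and 490 RPKM in WT and 332, 323, 323 and 318 RPKM in STAT3KO. The STAT3KO values lie close together and below every WT value. The difference was -0.70 ± 0.15 (limma adjusted p = 0.00309), 61.4% of the WT mean, and it passed in each of the 21 alternatives. Npc1, the membrane protein that passes cholesterol out of the lysosome, fell from 73.4, 66.0 and 76.6 RPKM to 52.5, 45.9, 46.9 and 52.7 RPKM without overlap (-0.53 ± 0.17, limma adjusted p = 0.0231). The fall was lost on leaving out WT replicate 1 (limma adjusted p = 0.0661), WT replicate 3 (0.0753), STAT3KO replicate 2 (0.0514) or STAT3KO replicate 3 (0.0510). Its soluble partner Npc2, which hands cholesterol to NPC1, was 263, 333 and 353 RPKM in WT and 368 to 436 RPKM in STAT3KO, a difference of 0.35 ± 0.14 that did not pass (limma adjusted p = 0.0539). Psap did not pass (-0.05 ± 0.12, limma adjusted p = 0.757).

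At the membrane Cd63, a tetraspanin of lysosomes and exosomes, was 308, 201 and 234 RPKM in WT and 448, 368, 302 and 403 RPKM in STAT3KO. The lowest STAT3KO library was just below the highest WT library. The rise of 0.62 ± 0.17 (limma adjusted p = 0.0137) was not called without WT replicate 2 (limma adjusted p = 0.0579). Cd63 is also a protein of melanosomes, and WT replicate 2, its lowest library in WT, had the lowest melanocyte markers. With the melanocyte marker level as a covariate the call was kept, as were the other 24 calls of members in the 3 comparisons. Leaving out both libraries lowest in these markers gave an adjusted p of 0.0613 for Cd63 (limma). Both fits were added after the data were seen and measure no melanocyte RNA directly. The part of melanocyte RNA in Cd63 and in the other calls was not tested. Among 10 glycosidases and sulfatases only the sialidase Neu1 was called (0.31 ± 0.10, limma adjusted p = 0.0222), from 26.5, 22.2 and 27.0 RPKM to 32.9, 28.3, 32.9 and 31.8 RPKM. That call was lost with median-ratio scaling (limma adjusted p = 0.109) and without WT replicate 2 (0.0857), STAT3KO replicate 1 (0.0571) or STAT3KO replicate 3 (0.0533). The regulators Grn (0.24 ± 0.10, limma adjusted p = 0.0654) and Tfeb (-0.03 ± 0.10) did not pass.

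Beside these values, 6 of 9 macrophage markers rose and 1 fell, Itgam fell (-0.47) and 3 of 3 tested fibroblast markers rose. Falls were called in 1 of 3 tested dendritic cell markers (Itgax, -2.19), 2 of 2 tested osteoclast and giant cell markers and 4 of 4 erythroid markers. Of 8 tested neutrophil markers 0 passed. Of 5 fibroblast markers 1 had a mean of at least 1 RPKM in WT and 3 in STAT3KO. The filter on the mean over all 11 libraries thus largely fixed the direction of those tested. Over all genes tested 29.2% rose and 14.8% fell. With the GC and length correction 4 of the 7 macrophage calls were kept (3 rises and 1 fall). The calls of Itgam and of the fibroblast, dendritic cell and osteoclast lists were all kept. The groups did not overlap in 1 of the 4 erythroid markers. The part of the markers in the members' differences was not tested.

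**Figure D2:**
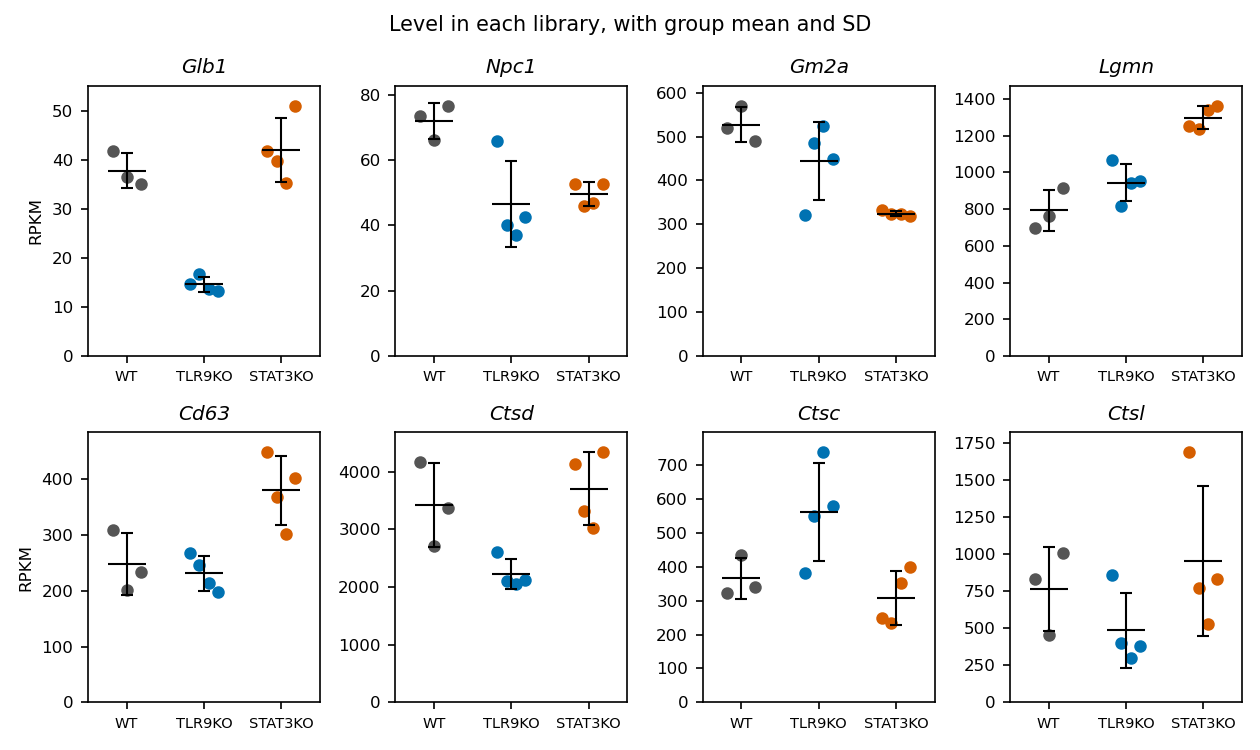
Each panel gives the RPKM of 1 gene in every library (points) with the group mean and SD (black), on an axis starting at 0. Glb1 in TLR9KO lies at 13.3 to 16.8 RPKM, below the 35.2 to 51.1 RPKM of all other libraries, while Ctsl spans 298 to 1689 RPKM with overlap between all groups.

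TLR9KO was compared with WT in the same way. Glb1 fell to 38.6% of its WT mean, Npc1 and Ctsd fell to about 65% of theirs (64.5% and 65.0%), Asah1 rose to 142%, and Gusb, Naglu and Lamp2 were called with smaller or unsteady differences. Of the 40 genes 2 rose, 5 fell and 33 did not pass, 7 in all (17.5%) against 30.6% of all genes tested (20.0% rose and 10.6% fell). The groups did not overlap in 7 of the 40, against 36.1% of all genes. The median log2 difference was -0.10 over the 40 and 0.04 over all genes. Rises made up 65.3% of calls over all genes as deposited, 54.2% with median-ratio scaling and 56.6% with the GC and length correction, and the members' calls under these alternatives were 1 up and 6 down, and 1 up and 3 down. With the correction 15.9% of all genes passed (8.98% rose and 6.89% fell). No macrophage or neutrophil marker passed in this comparison (0 of 9 and 0 of 8 tested), nor did any of 3 tested dendritic cell markers. Of fibroblast markers 3 of 3 tested rose, while 4 of 4 erythroid markers and 1 of 2 osteoclast and giant cell markers fell. The filter on the mean over all 11 libraries largely fixed the fibroblast and erythroid directions. It let in markers through the groups where they are high. Of 5 fibroblast markers 1 had a mean of at least 1 RPKM in WT and 3 in TLR9KO, and of 4 erythroid markers 4 and 0. The part of the markers in the results was not tested.

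Glb1, which removes terminal galactose from gangliosides and glycoproteins, was 41.9, 36.6 and 35.2 RPKM in WT and 14.6, 16.8, 13.7 and 13.3 RPKM in TLR9KO. The 4 TLR9KO values lie far below the lowest WT value. The means were 37.9 ± 3.54 RPKM (SD, n = 3) and 14.6 ± 1.59 RPKM (n = 4), with a log2 difference of -1.32 ± 0.12 (limma adjusted p = 0.000181). It passed in all 21 alternatives, with adjusted p no higher than 0.00335 (limma). Tmppe, a gene that overlaps Glb1 in RefSeq, was 4.89 to 5.48 RPKM (WT), 3.24 to 3.89 RPKM (TLR9KO) and 3.31 to 4.17 RPKM (STAT3KO), so reads shared by the pair can touch both values. Glb1 lies on chromosome 9, as does Tlr9, with 167 protein-coding genes between them in the gene order of GRCm38.p6. Of these, 92 were tested and 29 passed (31.5%), against 30.6% of all genes, and 2 changed by at least 2-fold (2.17%, against 2.18% of all genes). Such shares describe the interval and cannot decide for a single gene. Whether the fall of Glb1 goes with its place on the chromosome of Tlr9 was not tested.

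Other glycosidases of the list moved less. Gusb, the beta-glucuronidase, was called lower (-0.36 ± 0.12, limma adjusted p = 0.0422), from 158, 152 and 118 RPKM to 99.1, 121, 115 and 106 RPKM with overlap. Naglu, which removes N-acetylglucosamine from heparan sulfate, was also called lower (-0.31 ± 0.11, limma adjusted p = 0.0458), at 77.5, 61.1 and 81.5 RPKM against 63.6, 57.8, 57.4 and 55.7 RPKM. Both calls rest on the setting: Gusb passed in 8 of 21 alternatives and Naglu in 8. Without WT replicate 1 their adjusted p were 0.170 and 0.159 (limma), and Gusb was lost also without WT replicate 2, TLR9KO replicates 1, 3 or 4, or STAT3KO replicates 1 or 3 (limma adjusted p 0.0554 to 0.109). Naglu was lost also without WT replicate 3 or TLR9KO replicates 2, 3 or 4 (limma adjusted p 0.0848 to 0.178) or STAT3KO replicates 1, 2 or 4 (0.0537 to 0.0629). The other 7 did not pass, with Ids, the iduronate sulfatase, at 0.45 ± 0.21 and Gaa, the lysosomal alpha-glucosidase, at -0.43 ± 0.16.

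Npc1 was 73.4, 66.0 and 76.6 RPKM in WT and 66.0, 40.2, 37.0 and 42.7 RPKM in TLR9KO. TLR9KO replicate 1 equalled the lowest WT library to 3 digits, and the other 3 were far below. The fall of -0.66 ± 0.17 (limma adjusted p = 0.0124) passed in all 21 alternatives, with an adjusted p of at most 0.0488 (limma). The test of STAT3KO, above, used the same 3 WT libraries. Asah1, the acid ceramidase, rose from 79.2, 97.8 and 72.5 RPKM to 101, 113, 144 and 115 RPKM without overlap (0.50 ± 0.14, limma adjusted p = 0.0212). This call was lost without WT replicate 1 (limma adjusted p = 0.0765), without WT replicate 3 (0.0913) and with the GC and length correction (0.414).

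Ctsd was 4171, 2714 and 3369 RPKM in WT and 2608, 2099, 2051 and 2125 RPKM in TLR9KO, so that the highest TLR9KO library lies just under the lowest WT library. The fall of -0.61 ± 0.18 (limma adjusted p = 0.0274) left 65.0% of the WT mean. It was lost on leaving out WT replicate 1 (limma adjusted p = 0.131), WT replicate 3 (0.0736) or TLR9KO replicates 2 (0.0658), 3 (0.0583) or 4 (0.0605), and also with the correction (0.0799) or with no filter on low values (0.196). Of the 9 cysteine proteases 0 passed, with differences of 0.60 ± 0.27 for Ctss, 0.59 ± 0.24 for Ctsc and -0.70 ± 0.44 for Ctsl. Ctss was 1266, 1857 and 1185 RPKM in WT and 1490, 2125, 3352 and 1972 RPKM in TLR9KO (limma adjusted p = 0.107), with replicate 3 far above the rest. Psap (-0.19 ± 0.12), Ctsb (0.06 ± 0.12) and Grn (-0.15 ± 0.10) did not pass.

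Lamp2, a membrane glycoprotein needed for autophagy, was 129, 183 and 134 RPKM in WT and 185, 187, 227 and 182 RPKM in TLR9KO, with overlap through WT replicate 2. It was called higher (0.41 ± 0.13, limma adjusted p = 0.0342), but its direction turned with the correction for GC content and length (-0.14, limma adjusted p = 0.298). Lamp2 has the lowest transcript GC content of the 40 genes, at 38.7%. The call was lost without WT replicate 1 (limma adjusted p = 0.148), WT replicate 3 (0.126), TLR9KO replicate 2 (0.0571) or TLR9KO replicate 3 (0.0799), and it passed in 11 of 21 alternatives.

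The differences followed GC content and transcript length across genes. Over 10428 genes with a value, Spearman's rho between the log2 difference and GC content was -0.55 for TLR9KO minus WT, -0.24 for STAT3KO minus WT and 0.30 for STAT3KO minus TLR9KO. For length rho was -0.16, -0.30 and -0.26 in the same order. These are descriptions across genes, which are not independent. After the correction 2 of the 7 member calls kept their side, Glb1 (-1.29) and Npc1 (-0.74), as 15.9% of all genes passed. Neu1 (0.30, limma adjusted p = 0.0286) and Lipa (-0.64, limma adjusted p = 0.0157) were called only with it. All 6 calls of STAT3KO minus WT were kept, and Lamp2 (-0.45, limma adjusted p = 0.00304) and Ppt1 (-0.44, limma adjusted p = 0.0376) were called lower in addition. The source of this trend was not tested.

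**Figure D3:**
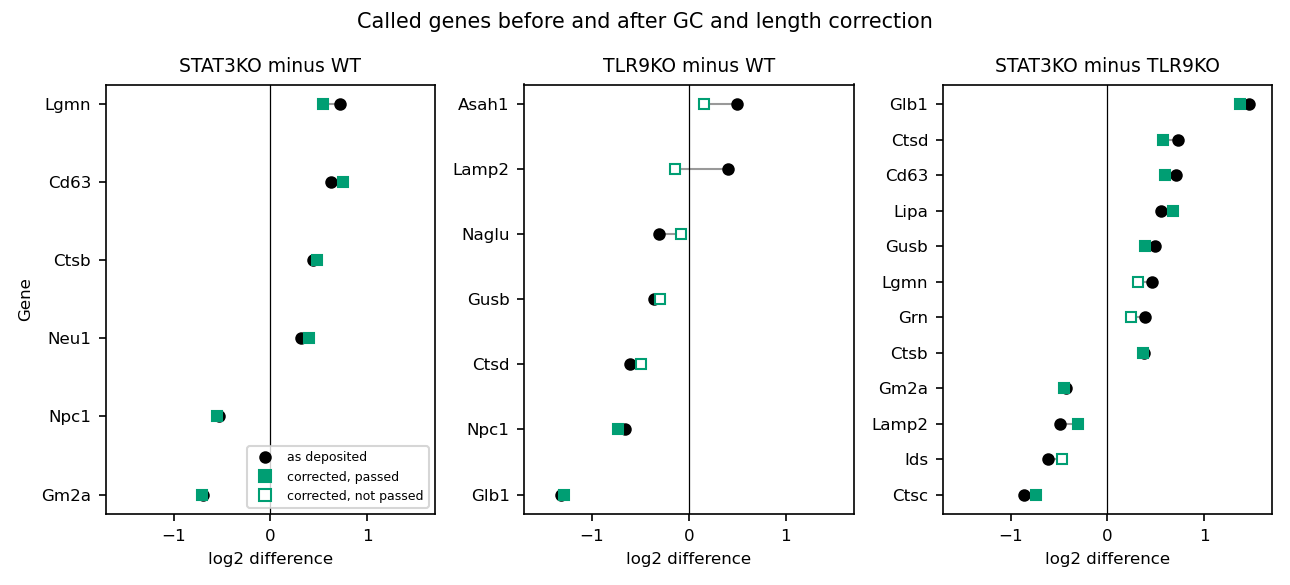
Log2 differences of the called genes in each comparison, as deposited (black circles) and after the GC and length correction (green squares, filled where the call was kept). Lamp2 in TLR9KO minus WT crosses 0, while Glb1 (-1.32 and -1.29) and Npc1 (-0.66 and -0.74) keep their calls.

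STAT3KO and TLR9KO were then compared directly. Cathepsin D, Glb1, Gusb, the acid lipase Lipa and Cd63 were higher in STAT3KO, and cathepsin C, Ids, Gm2a and Lamp2 were higher in TLR9KO. Of the 40 genes 8 rose, 4 fell and 28 did not pass, 12 in all (30.0%) against 22.8% of all genes tested (13.4% rose and 9.46% fell). The groups did not overlap in 11, against 27.0% of all genes. The median log2 difference was 0.14 over the 40 and 0.06 over all genes. Rises made up 58.5% of calls over all genes as deposited, 45.8% with median-ratio scaling and 49.9% with the correction, and the members' calls were then 7 up and 4 down, and 6 up and 3 down. With the correction 20.2% of all genes passed (10.1% rose and 10.1% fell). Of the markers 1 of 9 for macrophages, 1 of 8 tested for neutrophils and 1 of 3 tested for dendritic cells rose, while 1 for macrophages, 1 for dendritic cells and 2 of 2 tested for osteoclasts fell, and their part in the results was not tested.

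Among the proteases Ctsd was 4141, 3317, 3028 and 4335 RPKM in STAT3KO, each above the 2051 to 2608 RPKM of TLR9KO (0.73 ± 0.17, limma adjusted p = 0.0120), a call lost only with no filter on low values (0.104) among the 21 alternatives. Ctsc, the dipeptidyl peptidase that activates granule serine proteases, was 249, 233, 351 and 398 RPKM in STAT3KO and 381, 548, 736 and 578 RPKM in TLR9KO. The groups overlap through 1 library each, and the difference was -0.86 ± 0.22 (limma adjusted p = 0.0183). It was lost without TLR9KO replicate 4 (limma adjusted p = 0.0502), STAT3KO replicate 1 (0.0536) or STAT3KO replicate 2 (0.0511), and kept with the correction. Lgmn (0.46 ± 0.11, limma adjusted p = 0.0156) and Ctsb (0.38 ± 0.11, limma adjusted p = 0.0303) were also higher, each without overlap. Lgmn was lost without TLR9KO replicate 2 (limma adjusted p = 0.0510) and with the correction (0.0922), and Ctsb without TLR9KO replicates 2 or 4 or STAT3KO replicates 1 or 4 (0.0786 to 0.0932). The Ctsb call passed in 12 of 21 alternatives and was lost also with no filter on low values (limma adjusted p = 0.159), median-ratio scaling (0.0621), a block for the replicate number (0.0666, and 0.0796 with the correction) and a fit of only these 2 groups (0.0542). Ctsl, named here after its values were seen, had a difference of 0.96 ± 0.40 that did not pass (limma adjusted p = 0.107). Its 11 libraries overlap between all groups, with 298 to 863 RPKM in TLR9KO against 529 to 1689 RPKM in STAT3KO. Ctss (-0.30 ± 0.25) did not pass.

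Glb1 was 41.9, 39.9, 35.5 and 51.1 RPKM in STAT3KO, far above TLR9KO (1.46 ± 0.12, limma adjusted p = 2.69e-05), and its difference from WT was 0.14 ± 0.12 (limma adjusted p = 0.396). Gusb was 153, 142, 152 and 177 RPKM, again above each TLR9KO library (0.50 ± 0.11, limma adjusted p = 0.0107). Ids was 8.01, 7.13, 10.9 and 10.5 RPKM in STAT3KO and 12.2, 16.8, 14.9 and 13.8 RPKM in TLR9KO (-0.62 ± 0.20, limma adjusted p = 0.0433). That call passed in 10 of 21 alternatives and was lost without WT replicate 1, TLR9KO replicates 2, 3 or 4, or STAT3KO replicates 1, 2 or 4 (limma adjusted p 0.0512 to 0.111).

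Lipa, which digests cholesteryl esters, was 199, 139, 139 and 212 RPKM in STAT3KO and 111, 105, 128 and 115 RPKM in TLR9KO, without overlap (0.56 ± 0.14, limma adjusted p = 0.0176). The rise just missed the threshold without TLR9KO replicate 2 (limma adjusted p = 0.0520) or STAT3KO replicate 1 (0.0521). Gm2a was lower in STAT3KO (-0.43 ± 0.14, limma adjusted p = 0.0415), with overlap through TLR9KO replicate 1 at 321 RPKM. Leaving out any 1 library other than WT replicate 2 and TLR9KO replicate 1 ended that call (limma adjusted p 0.0521 to 0.109), and it passed in 7 of 21 alternatives. Psap (0.14 ± 0.11) and Npc1 (0.12 ± 0.15) did not pass.

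Cd63 rose by 0.71 ± 0.16 (limma adjusted p = 0.0109), from 268, 247, 214 and 197 RPKM in TLR9KO, and passed in all 21 alternatives. Lamp2 was 129, 134, 145 and 145 RPKM in STAT3KO, each below TLR9KO (-0.49 ± 0.12, limma adjusted p = 0.0145), and kept its call with the correction (-0.30, limma adjusted p = 0.0271). Grn was higher in each STAT3KO library, at 1145, 1281, 1295 and 1302 RPKM against 963, 890, 1029 and 949 RPKM (0.39 ± 0.09, limma adjusted p = 0.0120), but not with the correction (0.101). Tfeb did not pass (0.18 ± 0.09, limma adjusted p = 0.171). The forest plot of the 40 genes shows the differences of all 3 comparisons.

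**Figure D4:**
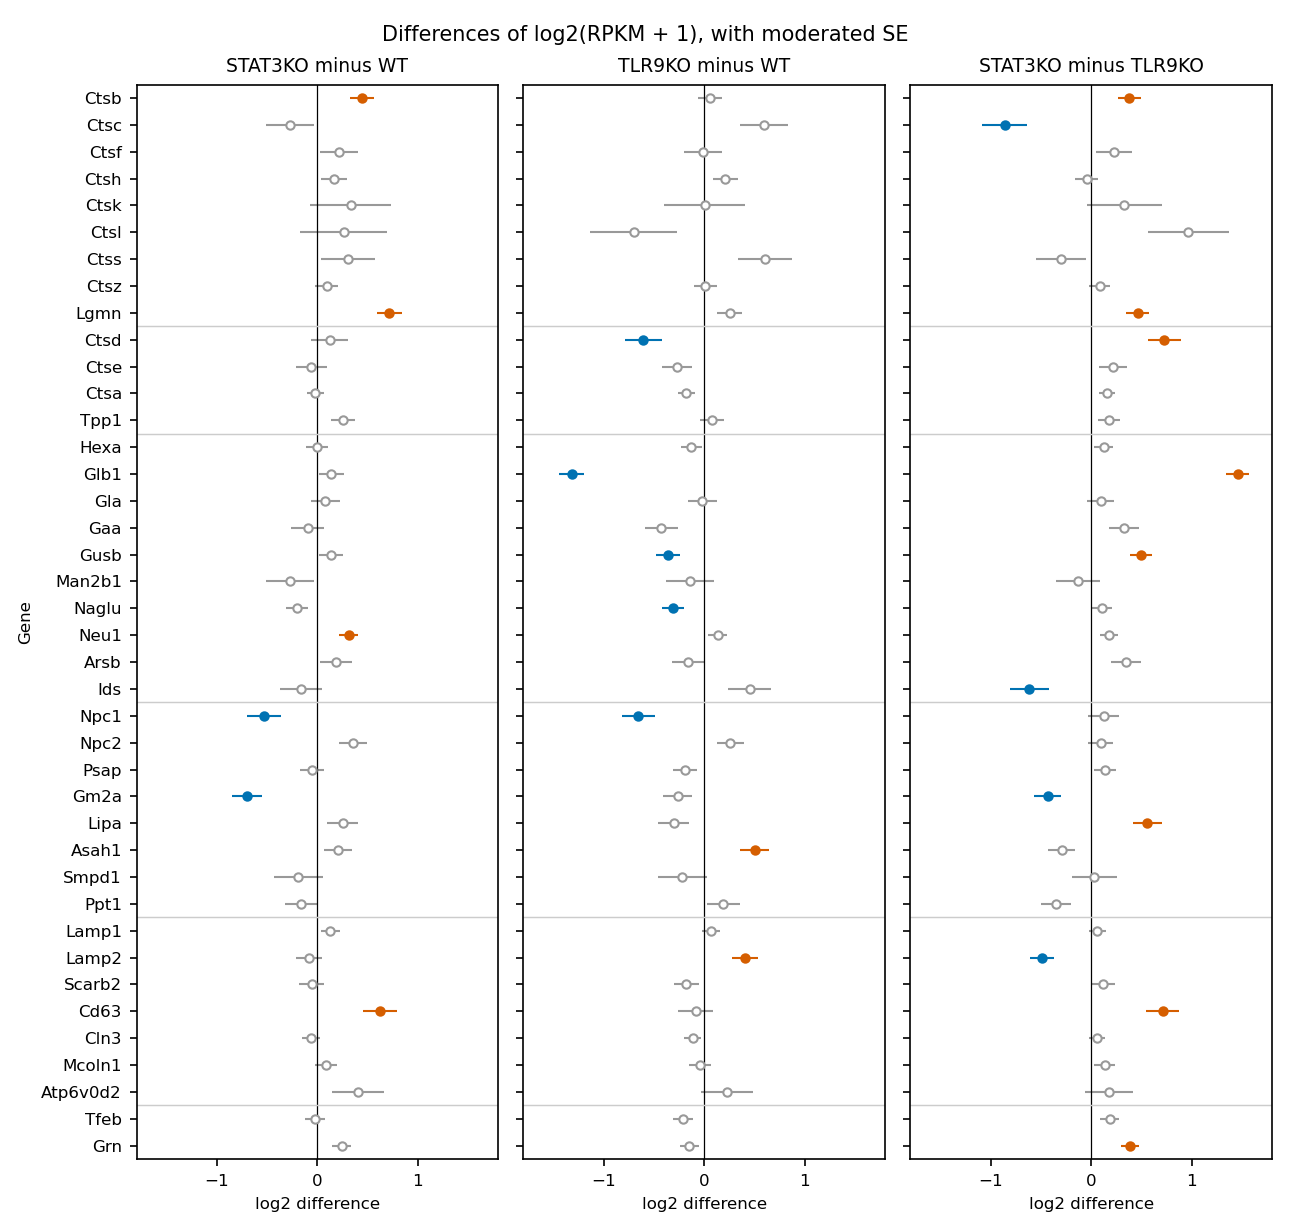
Log2 differences of the 40 genes in 3 comparisons, in order of role, with the moderated standard error (bars). Filled points passed limma at an adjusted p under 0.05 (orange higher, blue lower), and open grey points did not. Glb1 has the largest difference in both comparisons with TLR9KO, at -1.32 and 1.46.

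The 34 genes with a promoter entry were split by the E-box. Of the 12 with the E-box, 1 rose and 0 fell in STAT3KO minus WT, 0 rose and 3 fell in TLR9KO minus WT, and 3 rose and 0 fell in STAT3KO minus TLR9KO. The 3 that fell in TLR9KO were Ctsd, Glb1 and Naglu. Of the 22 without it, the counts were 2 and 1, 1 and 1, and 4 and 4. The medians were -0.15 with and -0.11 without the E-box in TLR9KO minus WT, and 0.19 and 0.12 in STAT3KO minus TLR9KO. With the GC and length correction 1 of the 12 fell in TLR9KO minus WT. The 12 genes thus had 1, 3 and 3 calls in these comparisons, in which 44.0%, 30.6% and 22.8% of all genes tested passed, and the split is a description.

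The wider lysosomal and autophagy pathway was read from 119 other genes in 7 lists, of which 111 were tested. In STAT3KO minus WT 24 rose and 19 fell (38.7%, against 44.0% of all genes tested), in TLR9KO minus WT 21 and 21 (37.8%, against 30.6%), and in STAT3KO minus TLR9KO 20 and 10 (27.0%, against 22.8%). With the correction these counts were 16 and 26, 8 and 12, and 13 and 12. Of all genes 38.5%, 15.9% and 20.2% then passed (20.2%, 8.98% and 10.1% rose, 18.4%, 6.89% and 10.1% fell).

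Of 11 cathepsin inhibitors 6 were tested, and 3, 2 and 2 rose in the 3 comparisons while 0 fell in each. Of all genes tested 44.0%, 30.6% and 22.8% passed, and 6 genes are too few to set the list apart from these shares. The difference was below 0, without a call, in 2, 2 and 1 of the 6. With the GC and length correction 1, 0 and 1 rose and 0 fell, while 38.5%, 15.9% and 20.2% of all genes passed. Ctla2b, which resembles the propeptide of cysteine cathepsins, was 0.49, 1.43 and 0.67 RPKM in WT, 2.68, 1.98, 3.81 and 2.84 RPKM in TLR9KO and 16.3, 18.7, 17.2 and 30.8 RPKM in STAT3KO. The 3 groups do not overlap, and the difference between STAT3KO and WT was 3.53 ± 0.24 (limma adjusted p = 1.09e-05). The WT mean of Ctla2b was 0.86 RPKM, so it passed the filter on the mean over all 11 libraries only through the knockout groups. The filter thus favoured a rise for this gene. The difference between TLR9KO and WT (1.05 ± 0.24, limma adjusted p = 0.00756) was lost with the correction. Ctla2a and Ctla2b are near-identical, so the counting could have split their reads. The cystatins Cstb (0.68) and Cst3 (0.65) rose in STAT3KO minus WT, and neither passed with the correction.

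The proton pump list of 17 subunits had 5 rises and 3 falls in STAT3KO minus WT and 4 and 3 in TLR9KO minus WT. These calls made up 47.1% and 41.2% of the list, against 44.0% and 30.6% of all genes tested. In STAT3KO minus TLR9KO 2 rose and 1 fell (17.65%, against 22.8%). With the GC and length correction the first 2 comparisons had 1 rise and 6 falls, and 1 and 3. Over all genes 38.5% and 15.9% then passed (20.2% and 8.98% rose, 18.4% and 6.89% fell). The list's median for STAT3KO minus WT went from 0.25 to -0.05. Atp6v0d1, a subunit of the membrane part, was 192 to 211 RPKM in WT, with 145 to 162 RPKM for TLR9KO and 125 to 136 RPKM for STAT3KO. It fell in both comparisons with the shared WT libraries (-0.63 ± 0.08 and -0.40 ± 0.08, limma adjusted p = 0.000122 and 0.00294). Atp6v0a1, named after its values were seen, fell as well (-0.78 ± 0.19 and -0.70 ± 0.19). Atp6v0a1 and Naglu lie near Stat3 on chromosome 11, with 1 and 2 protein-coding genes between each and Stat3 in the order of GRCm38.p6. Atp6v0a1 was at 58.0% of its WT mean in STAT3KO and 61.7% in TLR9KO. Naglu was at 86.2% in STAT3KO, where it was not called, and 79.9% in TLR9KO. The part of this position was not tested. The rise of Atp6ap2 in TLR9KO minus WT (0.55) was lost with the correction, where its sign turned.

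Of 24 other hydrolases tested 4 rose and 4 fell in STAT3KO minus WT, 2 and 5 in TLR9KO minus WT, and 5 and 0 in STAT3KO minus TLR9KO. The shares called were 33.3%, 29.2% and 20.8%, against 44.0%, 30.6% and 22.8% of all genes tested. Aga, which splits sugar from asparagine, rose from 8.15 to 9.32 RPKM in WT to 14.8 to 19.9 RPKM in STAT3KO (0.97 ± 0.10) and 13.9 to 15.4 RPKM in TLR9KO (0.70 ± 0.10). Dnase2a, the acid DNase that digests engulfed DNA, rose in STAT3KO minus WT (0.64 ± 0.10, limma adjusted p = 0.000717). Galns, a sulfatase of keratan and chondroitin sulfate, was 27.6 to 33.6 RPKM in TLR9KO, below the 46.7 to 50.4 RPKM of WT and the 40.2 to 46.3 RPKM of STAT3KO (-0.71 ± 0.09 and 0.58 ± 0.08 for STAT3KO minus TLR9KO). Sgsh, which removes sulfate from heparan sulfate, was higher in STAT3KO than in TLR9KO (1.15 ± 0.20, limma adjusted p = 0.00361).

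Of 22 other membrane proteins and transporters tested 0 rose and 8 fell in STAT3KO minus WT, 3 and 5 in TLR9KO minus WT, and 4 and 6 in STAT3KO minus TLR9KO. The shares called were 36.4%, 36.4% and 45.5%, against 44.0%, 30.6% and 22.8% of all genes tested. Sidt2, a lysosomal RNA transporter, was 87.5 to 103 RPKM (WT), 43.9 to 53.6 RPKM (TLR9KO) and 33.2 to 39.7 RPKM (STAT3KO). The groups did not overlap, with -1.38 ± 0.10 for STAT3KO minus WT (limma adjusted p = 1.09e-05) and -0.91 ± 0.10 for TLR9KO minus WT (0.000228). Sidt2 is also on chromosome 9, with 479 protein-coding genes between it and Tlr9. Slc36a1, an amino acid exporter, fell in STAT3KO minus WT (-0.60 ± 0.10). Laptm5, abundant at 1253 to 1471 RPKM in WT, fell in TLR9KO minus WT (-0.65 ± 0.11, limma adjusted p = 0.00216), while Laptm4a rose (0.53 ± 0.08).

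Of 9 genes that sort enzymes to the lysosome 3 rose and 0 fell in STAT3KO minus WT, 2 and 2 in TLR9KO minus WT, and 2 and 0 in STAT3KO minus TLR9KO. The shares called were 33.3%, 44.4% and 22.2%, against 44.0%, 30.6% and 22.8% of all genes tested. Gnptg and Gnptab, subunits of the enzyme that adds the mannose 6-phosphate tag, rose in STAT3KO minus WT by 0.94 ± 0.11 and 0.49 ± 0.12 (limma adjusted p = 0.000132 and 0.00764). Of 17 tested genes of the TFEB family and of nutrient sensing 4 rose and 2 fell, 5 and 4, and 3 and 2 in the same order. These calls made up 35.3%, 52.9% and 29.4% of the 17, beside the same shares of all genes. Rheb, the activator of mTORC1, rose in STAT3KO minus WT (0.58 ± 0.07) and TLR9KO minus WT (0.66 ± 0.07), and Tsc2, its inhibitor, fell (-0.55 ± 0.11 and -0.60 ± 0.11). These passed in each of the 21 alternatives. Their sizes shrank to as little as 0.44 and 0.47 for Rheb, and to -0.30 in both comparisons for Tsc2. Tfec, a macrophage member of the TFEB family, was lower in STAT3KO than in TLR9KO (-0.79 ± 0.11, limma adjusted p = 0.000860). Of 16 autophagy genes 5 rose and 2 fell, 3 and 2, and 2 and 1, or 43.75%, 31.25% and 18.75%, near the shares of all genes. Atg3, which joins LC3 to lipid, rose in STAT3KO minus WT (0.79 ± 0.09), and Atg7, which activates LC3, fell (-0.55 ± 0.07). Both passed in each of the 21 alternatives, with differences of 0.26 to 0.89 for Atg3 and -0.66 to -0.43 for Atg7. Sqstm1, the autophagy receptor p62, was 365 to 483 RPKM in STAT3KO and 201 to 282 RPKM in TLR9KO (0.82 ± 0.17, limma adjusted p = 0.00726).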

How the data were processed

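RNA of 11 libraries was measured by sequencing. The authors deposited 1 RPKM value per gene symbol, per the file headers (10 of 11 headers name the unit; that of TLR9KO replicate 4 does not). CASAVA 1.7, TopHat 1.3.1, Bowtie 0.12.7, Partek (no version) and mm9 are named per the submitters' processing notes. What annotation and read total were used, and how strand and multi-mapping reads were handled, was not given in the sources used here. Hence overlapping and near-identical genes can share reads.

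Steps in the values of microRNA genes gave depths of 30 to 53.2 M reads, estimates at which 73.8% to 96.9% of those values were whole reads (tolerance 0.15). Then 1 RPKM in a 2 kb gene stands for 60 to 106 reads. No count test was run, since RPKM is not a count.

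The 10557 genes whose mean reached 1 RPKM were fitted as log2(RPKM + 1) with limma 3.58.1 in R 4.3.3 (3 group means, all 11 libraries, eBayes with trend, two-sided, Benjamini-Hochberg over all genes, threshold 0.05), after a test on simulated data. Errors are SDs of RPKM and moderated standard errors of differences. Alternatives were 19 planned and 2 added after seeing the data (melanocyte level as covariate, and its 2 lowest libraries left out). The correction removes each library's trend with GC content and length (splines with 4 degrees of freedom, GENCODE M21 transcripts, 98.8% of genes). Python 3.11.15, numpy 2.4.6, pandas 2.3.3 and matplotlib 3.10.9 made the tables and figures.

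The members and gene lists were chosen with earlier results of these data known. Genes were named by rule: members past the threshold with a difference of at least 0.5, the 5 most abundant members, members differing by at least 1 without passing (there was none), and up to 3 called genes of each other list with the smallest p. Other members were named after their values were seen.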

Additional observations from a re-analysis of the deposited data

Results flagged for a closer look

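In each TLR9KO and STAT3KO group the library farthest from the others was compared with the group's range on the log2 scale. Of 80 groups tested 9 had a library past Dixon's 95% critical value for 4 samples, where chance flags about 1 in 20. In TLR9KO replicate 1 Ctsd (2608 RPKM), Gla (73.7 RPKM) and Scarb2 (50.4 RPKM) were high. In TLR9KO replicate 3 Ctsa (288 RPKM), Ppt1 (91.9 RPKM) and Lamp2 (227 RPKM) were high and Gaa (31.6 RPKM) was low. Psap was low in STAT3KO replicate 3 (4809 RPKM) and Grn in STAT3KO replicate 1 (1145 RPKM). TLR9KO replicate 3 was also the library of its group with the lowest melanocyte markers (summed 474 RPKM), and the part of this in its 4 values was not tested.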

How the results depend on the processing

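Counts of members called changed with the settings more than the directions did. Over the 25 member calls and 21 alternatives, 416 of 525 values kept their direction and side of the threshold, 107 no longer passed and 2 reversed. Calls kept in all 21 were Lgmn and Gm2a (STAT3KO minus WT), Glb1 and Npc1 (TLR9KO minus WT) and Glb1 and Cd63 (STAT3KO minus TLR9KO). In STAT3KO minus WT rises went from 4 to 7 with a replicate block and 8 with array weights, and from 2 to 5 with 1 library left out. Falls went from 2 to 4 with the GC and length correction, 5 with block and correction and 5 without both libraries lowest in melanocyte markers, and from 1 to 3 with 1 library left out. In TLR9KO minus WT rises went from 2 to 1 with no filter, median-ratio scaling, the correction, the block, block and correction, or only the 2 groups, to 5 with array weights, and from 0 to 4 with 1 library left out. Falls went from 5 to 2 with no filter and 3 with the correction, the block, or only the 2 groups, and from 2 to 5 with 1 library left out. In STAT3KO minus TLR9KO rises went from 8 to 4 with no filter or block and correction and 14 with array weights, and from 5 to 10 with 1 library left out. Falls went from 4 to 2 with no filter or the block and 1 with block and correction, and from 1 to 4 with 1 library left out. Over all genes, calls of TLR9KO minus WT went from 3229 to 1654 with the correction and 1051 with block and correction, and from 1985 (without WT replicate 1) to 3588 with 1 library left out. Those of STAT3KO minus TLR9KO went from 2409 to 3807 with array weights, and from 1577 (without TLR9KO replicate 4) to 2703, and those of STAT3KO minus WT were 3667 to 4875 against 4648. The mean over the members moved in WT from 6.92 to 6.87 with a pseudocount of 0.1, 6.98 with median-ratio scaling and 6.96 with the correction, and in TLR9KO from 6.85 to 6.79 with that pseudocount. In TLR9KO minus WT Lamp2 reversed with the correction (-0.14) and with block and correction (-0.14), Cstb with the correction (-0.016), and Atp6ap2 with both (-0.00073 and -0.028). The cause of these changes was not tested. No scaling moved the median of all genes by over 0.1, but that of STAT3KO minus WT was itself only 0.095. Median-ratio scaling moved it by -0.098, to -0.003. Of 10 same-numbered pairs of libraries 4 correlated above 0.1 (range -0.29 to 0.49). These were the pairs among replicates 1 (0.18, 0.34 and 0.49) and TLR9KO with STAT3KO replicate 3 (0.45). Pairs with different numbers ranged from -0.61 to 0.53. The deviations are from means of only 3 or 4 libraries, so this cannot decide whether the numbers pair the samples. Reads per gene limit Ctse, Ctsf and other genes near 1 RPKM, whose counting error was not measured.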
